A study of Mus musculus with 6 samples.

Results

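The sirtuins are a family of enzymes that use NAD+ to remove acetyl and other acyl groups from lysine residues, and mammals have 7 of them, encoded by Sirt1 to Sirt7. The genes were chosen by their symbols: 7 of the 53342 genes in the deposited table, each with 1 row, and all 7 passed the filter on low values. SIRT1, SIRT6 and SIRT7 work mainly in the nucleus, SIRT2 mainly in the cytosol, and SIRT3, SIRT4 and SIRT5 in mitochondria. In 3T3-L1 cells SIRT1 represses the adipogenic receptor PPARγ, and SIRT2 holds back differentiation through the transcription factor FOXO1. The mitochondrial members act on enzymes of fatty acid oxidation, amino acid breakdown and the respiratory chain.

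The data are RNA sequencing of 6 samples of 3T3L1, a line of mouse fibroblasts that becomes adipocytes under hormones. All 6 were cultured in 10% foetal serum, induced 2 days after confluence with insulin at 1 µg/ml, IBMX at 0.5 mM and dexamethasone at 1 µM for 2 days, and then kept on insulin. The 3 groups of 2 samples were untreated cells, cells given the solvent DMSO, and cells given LTK-14A, which the labels call a butyrylation inhibitor with its dose and timing not given in the sources used here. Samples are numbered in the labels without saying that they came from separate cultures, so a p-value here reflects the spread among these particular samples, which may be technical. The cells are 1 line, and the untreated and DMSO groups were made to differentiate as well.

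The libraries held 2738411 to 6385677 steps, where a step is the commonest low value of a library and stands in for 1 read. The untreated libraries were the deepest. Untreated replicate 2 stood apart, where Gm26917 and Gm42418, loci of ribosomal RNA, took 16.4% of the total (8.60% to 10.7% elsewhere). The 10 adipocyte markers summed to 31470 to 39630 normalized counts in the untreated and DMSO libraries and to 3405 and 3904 with LTK-14A. All 10 of them fell against DMSO, among them the droplet coat protein gene Plin1 (log2 fold change -3.49), adipsin, Cfd (-8.85), and resistin, Retn (-5.93). The 7 preadipocyte and fibroblast markers summed to 42320 to 67390 in the control libraries and to 70600 and 73970 with LTK-14A, and 3 of them rose, the fibronectin gene Fn1 (log2 fold change 1.56), Thy1 (0.77) and Dlk1 (0.74). Most of the higher sum was Fn1, at 11440 and 11310 in the DMSO pair and 33280 and 33980 in the LTK-14A pair. The other 4 did not pass. Pdgfra (log2 fold change -0.26, limma adjusted p = 0.215) and Pdgfrb (-0.13, 0.58) were lower in both LTK-14A libraries than in the 4 control libraries. Col1a1 (0.30, 0.572) was higher in both LTK-14A libraries than in the DMSO pair, and untreated replicate 2 was its highest library. The nearly undetected Cd34 (0.83, 0.552) overlapped with the controls. With any DMSO or LTK-14A library left out, all adipocyte markers still fell. Fewer preadipocyte and macrophage markers then rose, as fewer genes did over the whole table. Of the 5 macrophage markers, Ptprc, Adgre1 and Itgam did not pass the filter on low values, the list summed to 37.6 to 59.3 in the controls and to 87.9 and 84.6 with LTK-14A, Cd68 rose (log2 fold change 1.97) and Csf1r was lower (-0.72, limma adjusted p = 0.296). Of the 4 endothelial markers, Cdh5 and Kdr did not pass the filter, and the list summed to 4.46 to 9.57 in the controls and was at 0 with LTK-14A. For Pecam1 and Tek the log2 fold changes were -1.67 (limma adjusted p = 0.103) and -1.33 (0.438). The part of these markers in the sirtuin results was not tested. In bulk RNA, fewer cells of a type and less RNA per cell cannot be told apart.

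The upstream sequences of the gene that rose, Sirt2, and of the gene with the lowest LTK-14A to DMSO ratio, Sirt1, differ in base composition. They are shown from RefSeq in build GRCm38.p6, 5′ to 3′, cut to the bases that lie in no exon of GENCODE vM21. Capitals mark CACGTG, the E-box bound by MYC and CLOCK family factors.
Sirt1 chr10:63339051-63339285, minus strand: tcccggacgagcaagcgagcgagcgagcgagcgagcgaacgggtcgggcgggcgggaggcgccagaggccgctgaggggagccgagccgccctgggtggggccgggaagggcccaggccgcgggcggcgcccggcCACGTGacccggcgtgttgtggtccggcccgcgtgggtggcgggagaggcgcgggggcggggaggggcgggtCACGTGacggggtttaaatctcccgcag
Sirt2 chr7:28766641-28766734, plus strand: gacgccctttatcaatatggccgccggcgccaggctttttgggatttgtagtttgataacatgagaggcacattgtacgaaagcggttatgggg
The Sirt1 stretch of 235 bases had 78.3% G and C and held 2 E-boxes and 6 GC boxes (GGGCGG, or CCGCCC on the other strand). The Sirt2 stretch of 94 bases had 50% G and C and held neither motif. It is shorter than the Sirt1 stretch, and the full Sirt2 window described below, of which it is a part, held 1 GC box. The Sirt1 stretch lies before the RefSeq start and inside an intron of longer GENCODE transcripts.

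All 7 sirtuin genes had a promoter window of 300 bases in the RefSeq table, from 250 bases before to 50 bases after the start, and Sirt3 and Sirt6 had a pair of windows each, which gave 9 windows. The Sirt1 window was richer in G and C than 98.6% of the 32851 windows in the table, at 79.0%. The E-box, which reads the same on both strands, was in 1 of the 9 windows, that of Sirt1, and in 7.15% of all windows, and at least 2 copies were in 0.594% of all windows. The GC box was in 6 of 9 windows, that of Sirt2 among them, and in 35.7% of all. The ETS core (CCGGAA, or TTCCGG on the other strand) was in 4 of 9, those of Sirt7, Sirt4 and the more upstream window of both Sirt3 and Sirt6, and in 14.9% of all. The NRF1 palindrome was in the upstream Sirt6 window and in 0.971% of all windows. The CCAAT box (CCAAT, or ATTGG on the other strand) was in 3 of 9, those of Sirt2, Sirt5 and the more downstream Sirt3 window, and in 37.4% of all. The cAMP response element TGACGTCA was in 0 of 9 and in 1.79% of all. These motifs were picked with the sequences in view, and a match is a run of letters, not a shown binding site.

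The comparison of LTK-14A with DMSO asked how the compound changes expression beyond its solvent. Sirt2 rose, and the other 6 sirtuins were lower on average with LTK-14A without passing the test. In all, 10.6% of the 24139 genes tested passed an adjusted p of 0.05, 3.98% higher and 6.58% lower. Of the 7 sirtuins 1 rose and 0 fell by limma, and at an unadjusted p under 0.05 the counts were also 1 and 0, where 26.3% of all genes passed. The log2 fold change lay below 0 for 6 of the 7, and for 53.1% of all genes. The median log2 fold change was -0.25 over the 7 sirtuins and -0.05 over all genes tested.

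**Figure D1:**
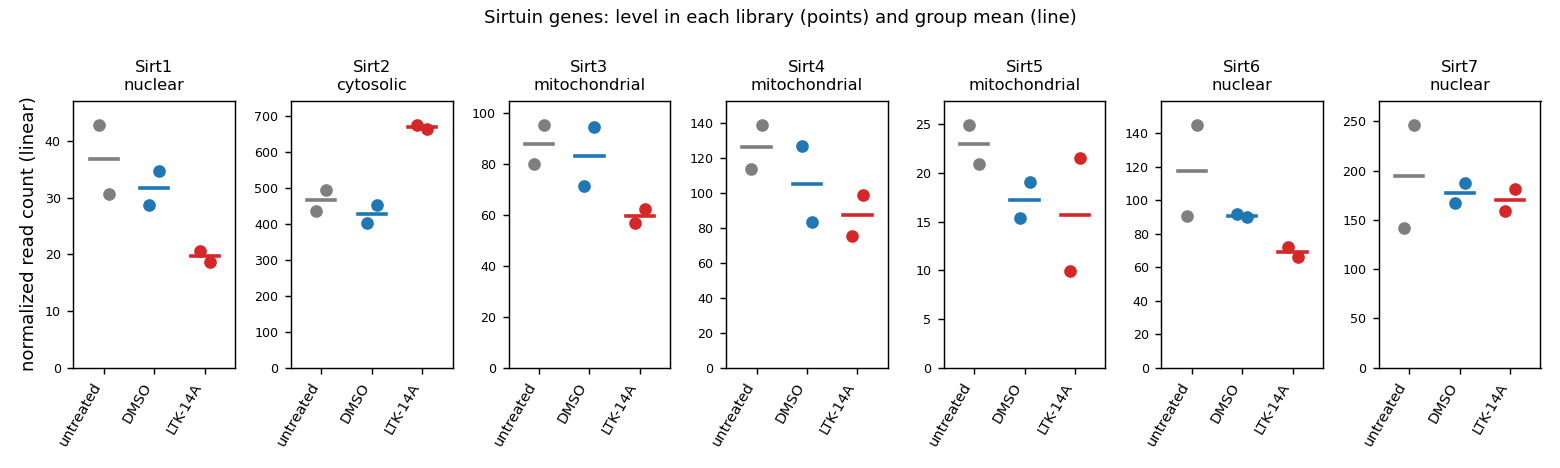
Normalized read count (linear axis from 0) of each sirtuin gene in each of the 6 libraries, with points for libraries and lines for the means of the 2 libraries of a group. Sirt2 stood at 675 and 662 with LTK-14A, above the control libraries, which lay between 402 and 494.

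Sirt2 (ENSMUSG00000015149, chromosome 7, 28766735 to 28788661, plus strand, mm10) encodes the cytosolic deacetylase of tubulin and FOXO1. It read 437 and 494 normalized counts in the untreated pair of libraries, 402 and 451 in the DMSO pair and 675 and 662 in the LTK-14A pair. Both LTK-14A libraries lay above all 4 control libraries, and the LTK-14A libraries were close to each other. The means were 427 ± 34.9 with DMSO and 669 ± 9.15 with LTK-14A (SD, n = 2), a ratio of 1.57. On the log2 scale the difference was 0.65 (SE 0.13, limma adjusted p = 0.0208). Leaving out DMSO replicate 1, DMSO replicate 2, LTK-14A replicate 1 or LTK-14A replicate 2 kept the log2 fold change at 0.57 to 0.73 but ended the call (limma adjusted p = 0.1 to 0.155), as did a fit without the mean-variance trend (0.138).

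Among the nuclear sirtuins, Sirt1 and Sirt6 were lower in both LTK-14A libraries than in any control library, and Sirt7 overlapped. Sirt1 (ENSMUSG00000020063, chromosome 10, 63319005 to 63381704, minus strand), which encodes the deacetylase of histones, p53 and PGC-1α, read 42.9 and 30.7 in the untreated pair of libraries, 28.8 and 34.8 in the DMSO pair and 20.7 and 18.7 in the LTK-14A pair. The ratio to DMSO was 0.619 and the log2 fold change -0.66 (SE 0.33, limma adjusted p = 0.261), with a 95% interval from -1.43 to 0.11. The LTK-14A libraries held 11.5 and 8.2 steps for this gene, and the part of depth in the width of the interval was not tested.

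Sirt6 (ENSMUSG00000034748, chromosome 10, 81621785 to 81627797, minus strand) encodes a histone H3 deacetylase that represses glycolytic genes. It read 90.3 and 145 in the untreated pair of libraries, 91.5 and 90.0 in the DMSO pair and 72.3 and 66.1 in the LTK-14A pair. Untreated replicate 2 was the highest library and the others lay closer together. Against DMSO the log2 fold change was -0.39 (SE 0.25, limma adjusted p = 0.404). Sirt7 (ENSMUSG00000025138, chromosome 11, 120618372 to 120625240, minus strand), which encodes a deacetylase linked to ribosomal DNA transcription, read 142 and 247 in the untreated pair of libraries, 167 and 187 in the DMSO pair and 159 and 181 in the LTK-14A pair. The LTK-14A and DMSO libraries overlapped, with a log2 fold change of -0.06 (SE 0.26, limma adjusted p = 0.923) and a 95% interval from -0.67 to 0.54. The sign turned to 0.04 after quantile normalization.

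Among the mitochondrial sirtuins, Sirt3 was lower in both LTK-14A libraries than in any control library, and Sirt4 and Sirt5 overlapped with DMSO. Sirt3 (ENSMUSG00000025486, chromosome 7, 140863666 to 140882309, minus strand) encodes the main deacetylase of the mitochondrial matrix. It read 79.8 and 95.2 in the untreated pair of libraries, 71.4 and 94.3 in the DMSO pair and 56.7 and 62.0 in the LTK-14A pair. The ratio to DMSO was 0.716 and the log2 fold change -0.46 (SE 0.23, limma adjusted p = 0.262), with a 95% interval from -1.0 to 0.08.

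Sirt4 (ENSMUSG00000029524, chromosome 5, 115478010 to 115484725, minus strand), which encodes an ADP-ribosyltransferase and lipoamidase that restrains glutamate dehydrogenase and pyruvate dehydrogenase, read 114 and 139 in the untreated pair of libraries, 127 and 83.3 in the DMSO pair and 75.3 and 99.2 in the LTK-14A pair. The DMSO libraries lay farther apart than the group means (log2 fold change -0.25, SE 0.26, limma adjusted p = 0.607), and without DMSO replicate 1 the value was 0.05. Sirt5 (ENSMUSG00000054021, chromosome 13, 43365496 to 43395203, plus strand), which encodes the enzyme that removes succinyl, malonyl and glutaryl groups, read 24.96 and 20.95 in the untreated pair of libraries, 15.3 and 19.0 in the DMSO pair and 9.88 and 21.6 in the LTK-14A pair. It had the largest SE of the family (log2 fold change -0.21, SE 0.46, limma adjusted p = 0.83), and without LTK-14A replicate 1 the value was 0.32.

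**Figure D2:**
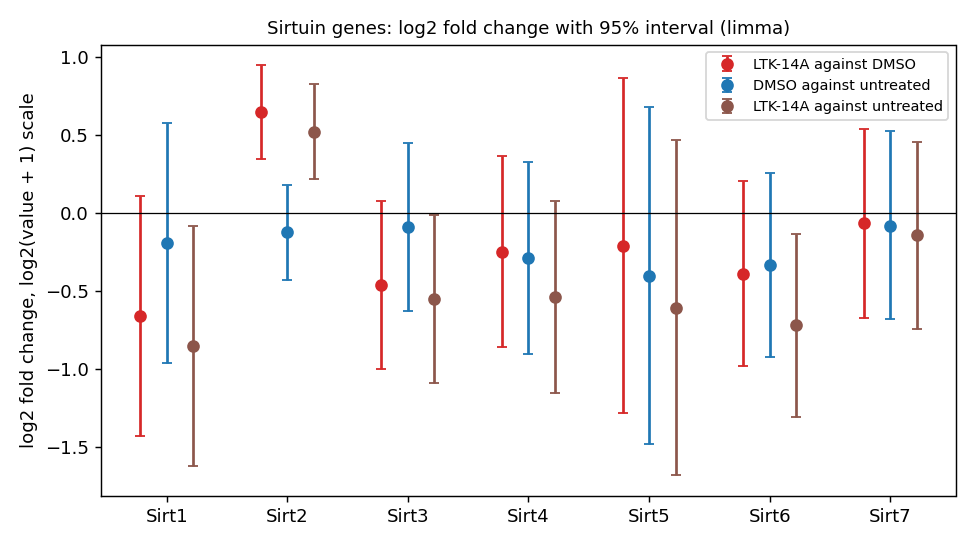
Log2 fold change of each sirtuin gene in the 3 comparisons (log2(value + 1) scale) from limma, with bars for the 95% interval. Against DMSO the interval of Sirt2, 0.35 to 0.95, lies above 0, and those of the other 6 genes include 0.

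By whether the libraries of the groups overlapped, Sirt2 was higher and Sirt1, Sirt3 and Sirt6 were lower in both LTK-14A libraries than in both DMSO libraries. Over all genes tested 54.3% were separated in this way, 24.5% upwards and 29.8% downwards, so 4 of 7 was near the background.

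Setting DMSO beside untreated cells addressed the effect of the solvent alone. By limma 0 of the 7 sirtuins passed, also at an unadjusted p under 0.05, against 0.0249% of all genes at the adjusted threshold and 5.83% unadjusted. All 7 log2 fold changes lay below 0, from -0.40 for Sirt5 to -0.08 for Sirt7, with SE of 0.13 to 0.46. Over all genes 50.4% lay below 0. For Sirt2 the log2 fold change was -0.12 (SE 0.13, limma adjusted p = 0.847), with a 95% interval from -0.43 to 0.18. Sirt5 was the member whose groups did not overlap, where 33.1% of all genes were separated, 17.2% downwards. The signs of Sirt3, Sirt6 and Sirt7 turned without untreated replicate 2, to 0.04, 0.007 and 0.32, and that of Sirt1 turned to 0.04 without untreated replicate 1. Without DMSO replicate 1 Sirt3 was at 0.11 and Sirt7 at 0.003, and without DMSO replicate 2 Sirt4 was at 0.015.

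Against untreated cells, LTK-14A gave the same single call, that of Sirt2, at a log2 fold change of 0.52 (SE 0.13, limma adjusted p = 0.038). In this comparison 12.9% of all genes passed, 4.68% higher and 8.17% lower. It uses the same LTK-14A libraries as the comparison with DMSO, so the values are not independent of those above. Of the 7 log2 fold changes 6 lay below 0, as did 51.6% over all genes. Sirt2 was separated upwards, as 24.6% of all genes were, and Sirt1, Sirt3, Sirt4 and Sirt6 downwards, as 28.9% were. Log2 fold changes were -0.85 (SE 0.33) for Sirt1, -0.72 (SE 0.25) for Sirt6, -0.61 (SE 0.46) for Sirt5, -0.55 (SE 0.23) for Sirt3, -0.54 (SE 0.26) for Sirt4 and -0.14 (SE 0.26) for Sirt7. Of these, Sirt1, Sirt3 and Sirt6 had an unadjusted p under 0.05, and their limma adjusted p were 0.138, 0.168 and 0.111. With Sirt2, 4 of the 7 sirtuins had an unadjusted p under 0.05, where 28.6% of all genes did in either direction. Sirt6 was at -1.06 without untreated replicate 1 (limma adjusted p = 0.018), and Sirt7 turned to 0.26 without untreated replicate 2. The call of Sirt2 was lost without untreated replicate 1 (limma adjusted p = 0.0557), without either DMSO library (0.0784 and 0.0789), without LTK-14A replicate 1 or 2 (0.204 and 0.177), on the pair of compared groups alone (0.0747) and without the variance trend (0.183). With DMSO and untreated libraries pooled as controls, a contrast added after the data were seen, Sirt2 had a log2 fold change of 0.59 (limma adjusted p = 0.0123), and those of Sirt1, Sirt3 and Sirt6 were -0.76, -0.51 and -0.55 (0.121, 0.137 and 0.138).

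To set the members beside each other, normalized counts were divided by the length of all exons of a gene, 2398 bases for Sirt4 to 6093 for Sirt5. The levels, their order and the shares given below depend on this choice of length. The longest transcript has 2117 bases for Sirt2, 4430 for Sirt1 and 2425 for Sirt5. With DMSO the level per kb was 84.7 ± 6.92 for Sirt2, 43.9 ± 12.9 for Sirt4, 34.4 ± 2.76 for Sirt7, 32.6 ± 0.378 for Sirt6, 13.9 ± 2.72 for Sirt3, 5.97 ± 0.794 for Sirt1 and 2.82 ± 0.431 for Sirt5 (SD, n = 2). Sirt4, Sirt7 and Sirt6 did not differ beyond the spread of their libraries in this order, while Sirt2 lay above Sirt4 in each of the 6 libraries. With LTK-14A the levels per kb were 133 ± 1.82 for Sirt2, 36.4 ± 7.04 for Sirt4, 33.0 ± 3.10 for Sirt7, 24.8 ± 1.57 for Sirt6, 9.93 ± 0.636 for Sirt3, 3.69 ± 0.255 for Sirt1 and 2.58 ± 1.36 for Sirt5. The order was the same, with Sirt7 above Sirt6 and Sirt5 overlapping Sirt1. Among 14796 protein-coding genes tested, the level per kb of Sirt2 was above 81.4% with DMSO and above 90.0% with LTK-14A, and that of Sirt1 was above 25.9% and 23.6%.

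In untreated cells the level per kb was 92.4 ± 8.06 for Sirt2, 52.7 ± 7.5 for Sirt4, 42.2 ± 13.9 for Sirt6, 37.7 ± 14.4 for Sirt7, 14.7 ± 1.82 for Sirt3, 6.91 ± 1.61 for Sirt1 and 3.77 ± 0.466 for Sirt5. Sirt6 and Sirt7 had the widest spread there, with untreated replicate 2 the higher library for both.

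The sums of the nuclear and of the mitochondrial sirtuins were both lower on average with LTK-14A, and their ratio did not separate the groups. Summed per kb, Sirt1, Sirt6 and Sirt7 came to 68.0 and 106 in untreated cells, 70.7 and 75.2 with DMSO, and 60.7 and 62.5 with LTK-14A. Sirt3, Sirt4 and Sirt5 came to 64.9 and 77.4, to 67.5 and 53.6, and to 42.5 and 55.3. Both LTK-14A libraries were below the control libraries in the nuclear sum, and the mitochondrial sums overlapped with DMSO. The ratio of the nuclear to the mitochondrial sum was 1.21 ± 0.225 in untreated cells, 1.23 ± 0.251 with DMSO and 1.28 ± 0.21 with LTK-14A, and the differences were smaller than the spread between the libraries of a group. Sirt2 made up 39.5% and 34.9% of the sum over all 7 genes in untreated cells, 36.6% and 41.0% with DMSO, and 56.5% and 52.8% with LTK-14A. These sums and shares rest on the exon lengths above, and were described by library and not tested.

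**Figure D3:**
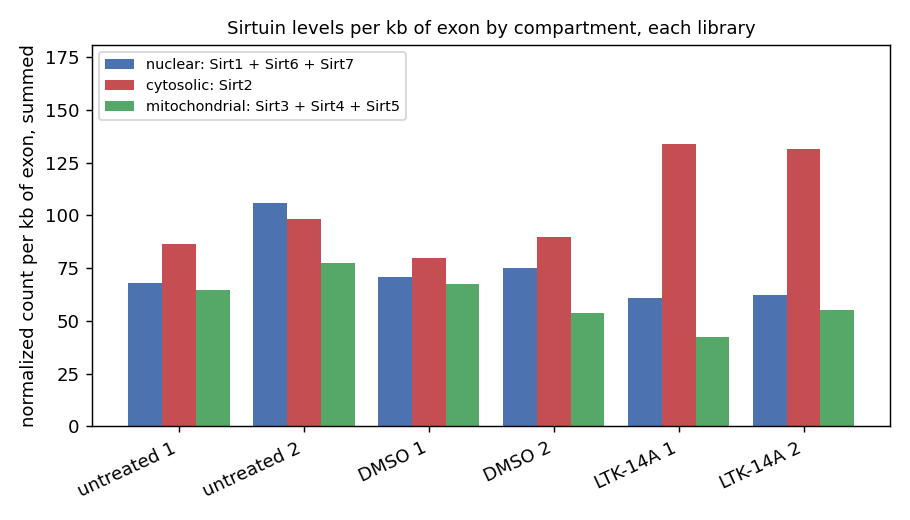
Sum of normalized counts per kb of exon for the nuclear (Sirt1, Sirt6, Sirt7), cytosolic (Sirt2) and mitochondrial (Sirt3, Sirt4, Sirt5) sirtuins in each library, as bars from 0. Sirt2 reached 134 and 131 in the LTK-14A libraries, with the control libraries from 79.8 to 98.1.

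Some sirtuin exons overlap those of neighbours, and whether the counting used strand is not given in the sources used here. Of the Sirt3 exon bases, 7.0% lie in exons of Ric8a and 5.73% in exons of the proteasome gene Psmd13, both on the opposite strand. Psmd13 starts head to head with Sirt3 and stood at 176 and 250 in the DMSO pair and 197 and 187 in the LTK-14A pair (log2 fold change -0.12, SE 0.22), so its groups overlapped. For Ric8a the log2 fold change was -0.10 (SE 0.19). Mafg, on the same strand as Sirt7, covers 2.41% of its exon bases, and Nfkbib, opposite to Sirt2, covers 0.83%, with log2 fold changes of -0.50 (SE 0.15, limma adjusted p = 0.0831) and 0.36 (SE 0.25, limma adjusted p = 0.435). Mafg passed among genes with a mean of at least 20 (0.0349), on the compared groups alone (0.0222) and without either untreated library (0.0202 and 0.0211). The antisense gene Gm16145, over Sirt1, was listed at 0 in all 6 libraries.

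For each sirtuin with a mean of at least 20, the genes most alike over the 6 libraries were ranked by Pearson's r of log2(value + 1) among 7477 named genes with a mean of at least 100, as a description. With so many genes and 6 libraries, high values of r are to be had for most patterns, and the libraries share their groups. Nearest to Sirt2 were Man2b2 and Ctsa, genes of lysosomal hydrolases, and the elongation factor gene Eef2 (r = 0.997 each). Ctsa stood at 1937 and 2193 in the DMSO pair and 3217 and 3194 in the LTK-14A pair. Nearest to Sirt1 were Heatr1 (r = 0.997), Emc3 (0.993) and Kpna6 (0.992), and nearest to Sirt3 were Tmem150a and Secisbp2 (0.999 each) and Tbl3 (0.997). Nearest to Sirt6 were Dpp3 (r = 0.997), Syne1 and Pex6 (0.995 each), all highest in untreated replicate 2, as Sirt6 was. Nearest to Sirt4 were Psmd9 (0.987), Gemin5 (0.982) and Pomgnt1 (0.98), and nearest to Sirt7 were Tmem132a (0.983), Slc4a2 (0.978) and Nsmf (0.975). Sirt5 had a mean under 20 and was not ranked.

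Sirtuins depend on NAD+, which is made and salvaged by the genes of the first list here. Of 21 genes of NAD+ synthesis and nicotinamide handling, 17 were tested, and 2 fell and 0 rose by limma against DMSO (4 and 2 at an unadjusted p under 0.05), with a list median of -0.34. Over all genes tested 6.58% fell, 3.98% rose and 26.3% had an unadjusted p under 0.05, and the counts of this list were near those shares. With a DMSO or LTK-14A library left out fewer fell, in this list and over all genes. Without either untreated library more fell, again in both. Without the variance trend 1 fell, where 853 of 24139 genes did. On the compared groups alone 4 fell, where 2021 of 22603 genes did. Among genes with a mean of at least 20 there were 2 that fell and 1 that rose, where 1894 and 1321 of 13179 did. Nampt, which makes the rate-limiting step of the salvage of nicotinamide, read 1618 and 1022 in the untreated pair of libraries, 1393 and 1308 in the DMSO pair and 1096 and 1041 in the LTK-14A pair. Both LTK-14A libraries were below the DMSO libraries, and 1 untreated library lay below both of them (log2 fold change -0.34, SE 0.20, limma adjusted p = 0.358). It passed on the compared groups alone (limma adjusted p = 0.0354) and without either untreated library (0.0357 and 0.0342). Nnmt, which methylates nicotinamide and so removes it from salvage, fell from 251 and 206 to 88.8 and 87.9 (log2 fold change -1.36, SE 0.17, limma adjusted p = 0.00328). Nadk, the cytosolic NAD+ kinase, fell by 0.55 (SE 0.12, limma adjusted p = 0.0265), a call lost on leaving out any 1 DMSO or LTK-14A library (0.108 to 0.195). None of the adenylyltransferase genes Nmnat1, Nmnat2 and Nmnat3 passed. The log2 fold changes were -0.17 for Nmnat1 (SE 0.34), -1.36 for the mitochondrial Nmnat3 (SE 0.48, limma adjusted p = 0.123) and 0.72 for Nmnat2 (SE 0.22, limma adjusted p = 0.0842). Nmnat2 passed among genes with a mean of at least 20 (0.0342). Nmnat1 turned to 0.014 after quantile normalization and to 0.017 without LTK-14A replicate 1.

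Other NAD+ users compete with sirtuins for the cofactor. Of 18 such genes with a row, 17 were tested, and 6 fell and 0 rose by limma (8 and 1 at an unadjusted p under 0.05), with a median of -0.42, where 6.58% of all genes fell and 26.3% had an unadjusted p under 0.05. Those that fell were Parp9, Parp10, Parp11, Parp12, Parp14 and Parp16, which encode mono-ADP-ribosyltransferases or their relatives, with log2 fold changes of -1.12 for Parp12 (SE 0.21), -0.78 for Parp10 (SE 0.15) and -2.79 for Parp16 (SE 0.60). Parp16 went from 44.2 and 43.0 to 11.6 and 2.29. With a DMSO or LTK-14A library left out fewer fell, in this list and over all genes. The list median then ran from -0.54 to -0.29. Of the 17 genes, 0 fell without the variance trend, where 853 of 24139 genes did. At a pseudocount of 0.1, 2 fell, where 1488 of 24139 genes did. Without either untreated library, on the compared groups alone or among genes with a mean of at least 20, 8 fell. Parp1, the DNA damage sensor, went from 469 and 473 to 345 and 301 without passing (log2 fold change -0.55, SE 0.15, limma adjusted p = 0.0667), and passed on the compared groups alone (0.0208), among genes with a mean of at least 20 (0.0269) and without either untreated library (0.0186 and 0.0194). The NAD+ hydrolase gene Cd38 was low, at 17.1 and 6.77 in the DMSO pair and 7.20 and 6.73 in the LTK-14A pair, with a log2 fold change of -0.58 (SE 0.58) that was 0.04 without DMSO replicate 1.

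**Figure D4:**
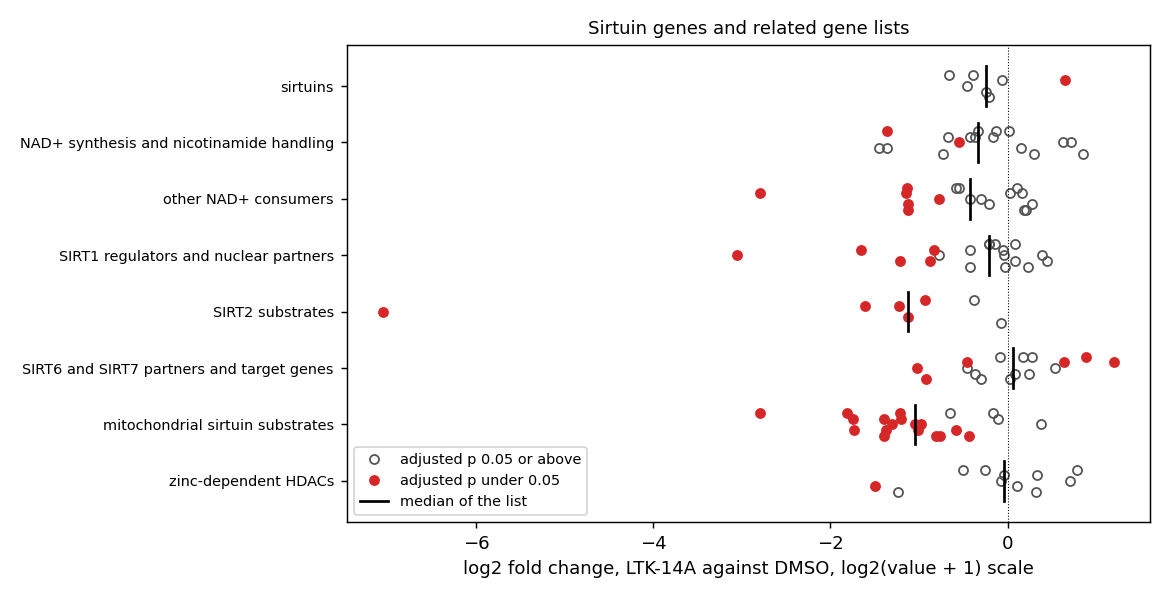
Log2 fold change of LTK-14A against DMSO (log2(value + 1) scale) for each tested gene of the sirtuins and of 7 related lists, filled where the limma adjusted p is under 0.05, with a bar at the list median. The median was -0.25 for the sirtuins, -1.05 for the substrates of mitochondrial sirtuins and -0.04 for the zinc-dependent HDACs.

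Among 19 regulators and nuclear partners of SIRT1, 5 fell and 0 rose by limma (7 and 2 at an unadjusted p under 0.05), with a median of -0.21, where over all genes 6.58% fell, 3.98% rose and 26.3% had an unadjusted p under 0.05. With a DMSO or LTK-14A library left out fewer fell, in this list and over all genes. Without the variance trend 2 fell, where 853 of 24139 genes did. Those that fell were the adipogenic receptor Pparg (log2 fold change -1.65), the liver X receptor alpha, Nr1h3 (-3.05), the repressor Bcl6 (-1.21), Srebf1 and Foxo1 (-0.83, SE 0.17, limma adjusted p = 0.0248). Pparg is also 1 of the 10 adipocyte markers that fell in the same libraries, and the part of these markers in this count was not tested. Foxo1 and Srebf1 lost their calls without DMSO replicate 1, DMSO replicate 2, LTK-14A replicate 1 or LTK-14A replicate 2 (limma adjusted p = 0.0711 to 0.176), and Bcl6 without any of the last 3 of these (0.0527 to 0.0608). The SIRT1 inhibitor gene Ccar2 stood at 228 and 226 in the DMSO pair and 209 and 203 in the LTK-14A pair (log2 fold change -0.14, SE 0.21). The values were -0.21 (SE 0.29) for Ppargc1a, the coactivator PGC-1α, 0.44 (SE 0.14, limma adjusted p = 0.0878) for the deubiquitinase gene Usp22, which passed among genes with a mean of at least 20 (0.0443), 0.39 (SE 0.13, limma adjusted p = 0.103) for Foxo3, and 0.23 (SE 0.11, limma adjusted p = 0.217) for the corepressor Ncor1, through which SIRT1 acts on PPARγ.

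Of 7 genes whose proteins are SIRT2 substrates, 5 fell and 0 rose by limma (6 and 0 at an unadjusted p under 0.05), with a median of -1.12, beside the rise of Sirt2 itself. Over all genes 6.58% fell and 26.3% had an unadjusted p under 0.05. With a DMSO or LTK-14A library left out fewer fell, in this list and over all genes. After quantile normalization or without the variance trend 3 fell, where 1274 and 853 of 24139 genes did. Acly, the ATP citrate lyase, went from 1256 and 1381 to 569 and 557 (log2 fold change -1.23, SE 0.12). Pck1, the gluconeogenic and glyceroneogenic enzyme, went from 548 and 483 to 3.6 and 2.29 (-7.05, SE 0.23), and G6pdx, the first enzyme of the pentose phosphate pathway, went from 1021 and 1012 to 441 and 496. The other genes that fell were Bub1b (log2 fold change -0.93, SE 0.21, limma adjusted p = 0.0319) and Cdc20 (-1.61, SE 0.41, 0.0485). They act in the mitotic checkpoint, so the list is not a single pathway. Their calls were lost after quantile normalization (limma adjusted p = 0.0607 and 0.0695) and without the variance trend (0.0925 and 0.0854). That of Cdc20 was also lost on the compared groups alone (0.0612) and at a pseudocount of 0.1 (0.0608). The values are of RNA, and acetylation of the proteins was not measured here. The adipocyte markers fell in the same libraries, and their part was not tested.

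Among 16 partners and target genes of SIRT6 and SIRT7, 3 rose and 3 fell by limma (3 and 5 at an unadjusted p under 0.05), with a median of 0.06, where over all genes 3.98% rose, 6.58% fell and 26.3% had an unadjusted p under 0.05. With a DMSO or LTK-14A library left out fewer rose and fewer fell, in this list and over all genes. Without the variance trend 1 rose and 0 fell, where 352 and 853 of 24139 genes did. The rises were those of the hypoxia factor Hif1a, from 1021 and 1020 to 2036 and 1730 (log2 fold change 0.88, SE 0.13), the glucose transporter Slc2a1 (0.64, SE 0.16, limma adjusted p = 0.0404) and the nucleolar chaperone Npm1 (1.20, SE 0.12). The falls were those of the lactate dehydrogenase gene Ldha (-1.02, SE 0.11), Tpi1 and Ubtf. The list holds glycolytic genes that SIRT6 represses. Among them the enzyme genes Ldha and Tpi1 fell and the transporter gene Slc2a1 rose. Pfkm, Pdk1, Pdk4 and Aldoc of this list did not pass. The call of Tpi1 was lost after median-of-ratios rescaling (limma adjusted p = 0.0608) and at a pseudocount of 0.1 (0.0515). It was also lost with zeros set to 1 (0.0523) and with the replicate number as a block (0.0527). That of Slc2a1 was lost after quantile normalization (0.0525) and at a pseudocount of 0.1 (0.0574). Slc2a1, Tpi1 and Ubtf lost their calls without DMSO replicate 1, DMSO replicate 2, LTK-14A replicate 1 or LTK-14A replicate 2 (limma adjusted p = 0.0905 to 0.232), and Hif1a without any of the first 3 of these (0.073 to 0.0878).

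The list with the most calls was that of mitochondrial sirtuin substrates. Of its 24 genes, 21 were tested, and 17 fell and 0 rose by limma (18 and 0 at an unadjusted p under 0.05), with a median of -1.05, against 6.58% of all genes falling. With 1 DMSO or LTK-14A library left out fewer fell, in this list and over all genes, and the list median ran from -1.09 to -1.03. Without the variance trend 10 fell, where 853 of the 24139 genes tested did. The superoxide dismutase gene Sod2, a SIRT3 substrate, went from 2422 and 2101 with DMSO to 643 and 708 with LTK-14A (log2 fold change -1.74, SE 0.15). Acadl, the long-chain acyl-CoA dehydrogenase, went from 988 and 1021 to 436 and 428 (-1.21, SE 0.11). The adenine nucleotide carrier gene Slc25a5, reported to bind SIRT4, had a log2 fold change of -1.81 (SE 0.12), and Hadha of the trifunctional protein one of -1.37 (SE 0.11). Glud1, the glutamate dehydrogenase restrained by SIRT4, fell by 0.44 (SE 0.11, limma adjusted p = 0.0447). That call was lost on leaving out any 1 DMSO or LTK-14A library (0.179 to 0.239), after median-of-ratios rescaling (0.0651), without a filter (0.0506) and with the replicate number as a block (0.054). Idh2 did not pass, at 721 and 780 in the DMSO pair and 997 and 957 in the LTK-14A pair (log2 fold change 0.38, SE 0.18, limma adjusted p = 0.231), but passed on the compared groups alone (0.0303) and without either untreated library (0.0289 and 0.0304). Mlycd, the malonyl-CoA decarboxylase that SIRT4 inhibits, had a log2 fold change of -0.65 (SE 0.26, limma adjusted p = 0.166). Acss1, the mitochondrial acetyl-CoA synthetase, was listed at 0 in 5 libraries and at 3.57 in untreated replicate 1, and was not tested. The adipocyte markers fell in the same libraries, and their part in this count was not tested.

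The zinc-dependent histone deacetylases, the other lysine deacylase family, had a median of -0.04 over 11 genes, of which 1 fell and 0 rose by limma (3 and 1 at an unadjusted p under 0.05). These counts were near the shares over all genes, of which 6.58% fell and 26.3% had an unadjusted p under 0.05. Hdac9 went from 27.6 and 33.3 with DMSO to 8.58 and 11.7 with LTK-14A (log2 fold change -1.50, SE 0.37, limma adjusted p = 0.0453), a call lost on leaving out any 1 DMSO or LTK-14A library (0.111 to 0.208). It was also lost after quantile normalization (0.0681), without the variance trend (0.0534), with zeros set to 1 (0.056) and on the compared groups alone (0.0506). Hdac10 and Hdac11 had log2 fold changes of -1.24 (SE 0.34, limma adjusted p = 0.0604) and 0.78 (SE 0.27, limma adjusted p = 0.118), and Hdac10 passed in 6 of the alternatives, at 0.0165 with the replicate block to 0.048 without a filter.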

How the data were processed

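Libraries came from total RNA by a stranded kit with ribosomal RNA depletion, per the labels' protocols. The authors deposited 1 table with values on a log10 scale, read here, from the values, as log10 of a log2 normalized count. The submitters' processing notes name mm10, with aligner, counter, annotation and normalization not given in the sources used here. Values were returned to normalized counts by raising 10 and then 2 to them, with a deposited 0 kept as 0. A step is the commonest low value. Only 23.4% to 28.8% of low values came within 0.01 of whole steps, so reads could not be recovered and the count test planned for whole counts was not used. GENCODE vM21 holds 53237 of the identifiers, and all 7 sirtuins have the same coordinates in it.

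The filter asked for 2 samples at 1 or more, and log2(value + 1) was fitted in limma 3.58.1 (R 4.3.3) over all 6 samples with 3 group means and a mean-variance trend. Fold changes are on that scale, which understates changes of low genes. Tests were two-sided, with Benjamini-Hochberg adjustment over 24139 genes at 0.05. Steps were tested on simulated data. The sirtuins, the gene lists and the rule for named genes were chosen with earlier results of these data known. That rule named the sirtuins, a panel of genes, the 3 smallest adjusted p of each list, overlapping genes and the 3 genes most alike. Some genes it does not cover were named after their values were seen, among them the other members of a list that passed. Python 3.11.15 was used for tables and figures.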

Additional observations from a re-analysis of the deposited data

How the results depend on the processing

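Sirt2 against DMSO kept its direction in every setting tried, at log2 fold changes of 0.57 to 0.73. Its call was lost without the mean-variance trend (0.649, limma adjusted p = 0.138) and, at 0.649, when a 2-fold change was asked for. Leaving out a DMSO or LTK-14A library, which leaves a group with 1 library assumed to vary like the others, gave 0.566 to 0.733 without a call. Against DMSO, Sirt1, Sirt3 and Sirt6 stayed below 0 and uncalled in every setting tried, at -0.792 to -0.49, -0.661 to -0.264 and -0.451 to -0.237. After quantile normalization Sirt7 turned to 0.042 and Nmnat1 to 0.014. With 1 library left out, values against DMSO ran from -0.551 to 0.054 for Sirt4, -0.733 to 0.32 for Sirt5, -0.157 to 0.034 for Sirt7 (0.02 without DMSO replicate 2), -0.348 to 0.017 for Nmnat1, -1.187 to 0.035 for Cd38, -0.375 to 0.125 for Psmd13 and -0.257 to 0.062 for Ric8a. For DMSO against untreated they ran from -0.427 to 0.042 for Sirt1, -0.285 to 0.112 for Sirt3 (0.039 without untreated replicate 2), -0.59 to 0.015 for Sirt4, -0.671 to 0.007 for Sirt6 and -0.476 to 0.319 for Sirt7 (0.003 without DMSO replicate 1). For LTK-14A against untreated Sirt7 ran from -0.537 to 0.258.

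Counts of called genes for LTK-14A against DMSO were 2548, against 1205 without the trend, 1529 with a 2-fold minimum and 591 to 3629 with a library left out. For DMSO against untreated they were 6, against 3 with a pseudocount of 0.1, 0 on the 2 groups alone and 0 to 109 with a library left out. For LTK-14A against untreated they were 3103, against 1387 without the trend, 2044 on the 2 groups alone, 1809 with a 2-fold minimum and 867 to 4016 with a library left out. When sums were not divided by length, the ratio of nuclear to mitochondrial sirtuins was 1.456 in untreated cells (libraries 1.257 and 1.654), 1.466 with DMSO (1.345 and 1.587) and 1.614 with LTK-14A (1.773 and 1.455), and the libraries of the 3 groups overlapped. Of 59 other named genes, 25 kept call and direction in all settings and 22 lost a call in at least 1. The list counts by setting and the pooled controls were chosen after seeing the data. The numbers of the samples do not pair them in the labels, and same-numbered samples deviated together at r = 0.167, -0.018 and 0.052 across genes. With the replicate number as a block, Sirt2 stayed at 0.649 (limma adjusted p = 0.02), and the counts were 2635, 5 and 3269. The cause of these shifts was not tested. Sirt1 and Sirt5, with 5.5 to 15.4 steps in the DMSO and LTK-14A libraries, had the fewest steps of the family there.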
